A study of Arabidopsis thaliana with 66 samples.

Results

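A set of 59 Arabidopsis thaliana probe sets, transcripts bright in normal flowers and nearly gone from 6 floral mutants, was drawn from the 22746 probe sets on the array that are not controls, selected on mean signal. A member had a mean signal of at least 100 in wild-type flowers of stage 12, and a mean of at most 25% of that level in the flowers of every one of 6 mutants, namely ap1-15, ap2-6, ufo-1, ap3-6, ag-12 and also lfy-12. PLIM2a also passed and was left out by name. SWEET genes were to be left out in the same way, and no probe set annotated as a SWEET gene passed. Members with no gene in the array annotation could not be checked for this. The selection uses the wild-type stage 12 arrays and the mutant arrays, so the levels in those groups are a description of how the members were chosen and carry no test. Of the members, 32 pair with 1 gene in the array annotation and are called by symbol or locus, 1 pairs with several genes and 26 with none, and the latter 27 are called by probe set.

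The 66 ATH1 arrays (1 colour) form 22 groups, each with 3 arrays. Col-0 wild-type plants in continuous light at 23 °C gave whole flowers of stages 9, 10/11, 12 and 15, dissected sepals, petals, stamens and carpels of stages 12 and 15, pedicels (flower stalks) of stage 15, and mature pollen. A further Col-0 group holds flowers of unstated stage from long days at 20 °C. The mutants share the Col-0 background, were taken at the equivalent of stage 12, and are represented by 1 allele each. The lfy-12 plants make leaf-like flowers. In ap1-15 sepals are missing and secondary flowers stand in place of petals, and ap2-6 has neither sepals nor petals and forms carpel-like organs. Petals and stamens are missing in ap3-6. In ag-12, stamens and carpels are replaced by further sepals and petals, and ufo-1 has filament-like organs in whorls 2 and 3. The remaining mutant, clv3-7, which the rule did not use, has an enlarged meristem and extra organs, among them a gynoecium of many carpels. The labels do not say whether the 3 arrays of a group come from separate plants or cultures, so p-values describe only the spread between these samples.

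Stamens are the male organs of the flower. Late in their development the anther matures its pollen grains, in which the large vegetative cell stores RNA and protein for the growth of the pollen tube after landing on a stigma. Pollen tubes grow by adding pectin at the tip and modifying it there, and enzymes that act on pectin, their inhibitors and small secreted peptides are known classes of pollen transcripts. LFY and UFO act upstream of the genes that set organ identity, AP3 is needed for petals and stamens, AG for stamens and carpels, and AP1 and AP2 for the outer organs. In whole flowers, fewer cells of a type and less RNA per cell cannot be told apart.

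In stage 12 wild-type flowers the member means ran from 100.4 to 721, with a median of 167. Signal is a linear brightness per probe set and is compared here only between samples. The floor, a signal of 22.61, is the 40th percentile of all values. Relative to wild type the median member stood at 2.23% in ap3-6, 2.28% in ag-12, 2.46% in lfy-12, 8.41% in ufo-1, 13.7% in ap1-15 and 15.6% in ap2-6. In lfy-12, ag-12 and ap3-6, 54, 53 and 52 members lay at or below the floor in every array. The count was 38 in ufo-1, 20 in ap1-15 and 15 in ap2-6. Above the floor in every array were 30 members in ap2-6, 26 in ap1-15 and 14 in ufo-1. The median member mean in ufo-1 was 14.1, below the floor. The highest residue of the 6 was in ap2-6 for 33 members, in ap1-15 for 20, in ufo-1 for 5 and in lfy-12 for 1. All single arrays of the 6 mutants lay below all stage 12 arrays for each of the 59 members, as the rule nearly requires.

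**Figure D1:**
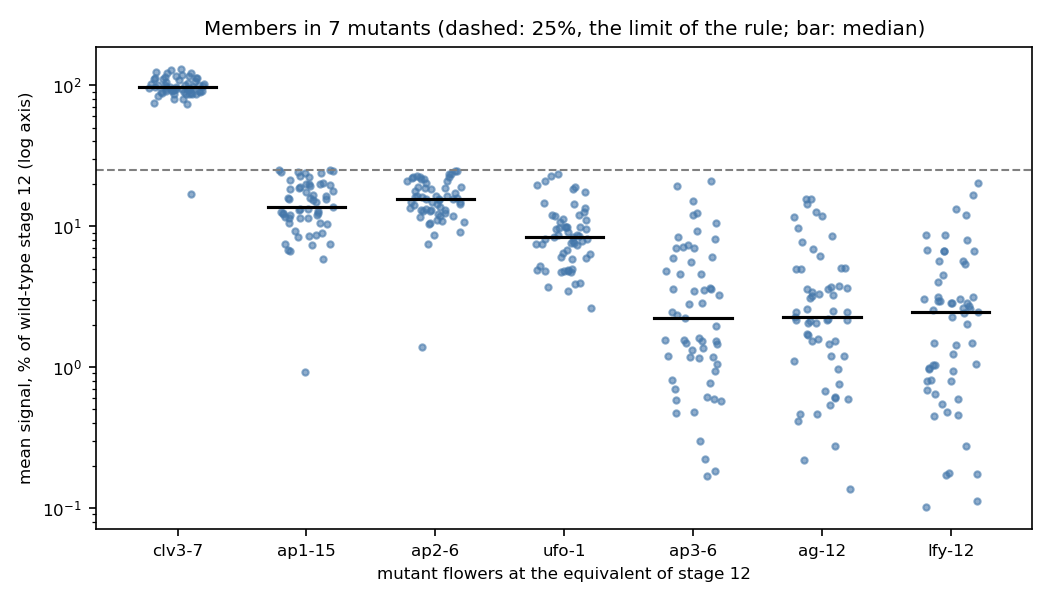
Mean signal of each of the 59 members (points) in 7 mutants, as a percentage of the wild-type stage 12 mean on a log axis, with the median as a bar and the 25% limit of the rule as a dashed line. Medians were 96.6% in clv3-7, 13.7% in ap1-15, 15.6% in ap2-6, 8.41% in ufo-1, 2.23% in ap3-6, 2.28% in ag-12 and 2.46% in lfy-12, and 1 member lay low in clv3-7.

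AT4G13230, a gene of the late embryogenesis abundant type (proteins that accumulate in drying seeds and pollen), differed between the mutants. Its stage 12 flower arrays read 475.2, 568.2 and 558.6. The ap1-15 arrays gave 116.8, 107.9 and 91.61 and the ap2-6 arrays 109.4, 98.01 and 96.91, while no array of lfy-12, ap3-6 or ag-12 exceeded 8.696. In ufo-1 it lay around the floor, at 17.61, 27.23 and 18.46. AT3G17060, a pectinesterase family gene, had no such residue: its stage 12 arrays were 107.9, 106.8 and 101.1, and the highest of the 18 mutant arrays was 9.153, in ufo-1. AT4G24380 was the opposite case, with 707.7, 717.1 and 737.5 in stage 12 flowers and between 70.38 and 125.9 in every array of the 6 mutants, above the floor throughout.

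Among the 7037 probe sets at 100 or more in stage 12 flowers, the share at or under 25% of wild type was 5.39% in lfy-12, 4.66% in ap3-6, 4.50% in ag-12, 3.01% in ufo-1, 2.05% in ap2-6 and 1.48% in ap1-15. The last 2 mutants limited the set. Without the ap1-15 condition 20 further probe sets would have entered, without that of ap2-6 10, of ufo-1 3 and of ag-12 2, and without that of lfy-12 or ap3-6 0. Just inside the limit stood AT4G02250 and AT1G26320, each at 24.85% of wild type in ap1-15, and AT5G47000 at 24.71% in the same mutant. Just outside were AT1G63060 at 25.08% in ap2-6, 255129_at at 25.13% in ag-12 and 256955_at at 25.27% in ap1-15. On the level criterion AT3G26860 (100.4), AT1G76240 (100.5) and 257392_at (100.9) lay just inside, and 254685_at (99.53), 259282_at (95.99) and GH9A4 (93.9) just outside.

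In clv3-7, 58 of the 59 members had means within 2-fold of wild type. The median was 96.6% of the stage 12 level, all 59 were above the floor in every array, and the arrays of the 2 groups overlapped for 38 members, with 10 wholly above and 11 wholly below. The shares of all probe sets for these counts were not computed, so they are description only. Across the array 0.0711% of the bright probe sets were at or under 25% of wild type in clv3-7. In the fit 1 member was called lower, against 0.272% of all probe sets tested, and 0 higher, against 0.425%, where a call is an adjusted p below 0.05 and at least a 2-fold change. By limma without adjustment for many tests, 3 members passed 0.05 as lower and 4 as higher, whatever their size. The share of all probe sets was not computed for these either. The stage 12 arrays also served the selection, so this comparison is not independent of it.

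That 1 member is AT5G26270, a gene with a pattern unlike the others. It read 155.2, 145.0 and 153.4 in stage 12 flowers and 26.42, 24.14 and 25.52 in clv3-7 (log2 fold change -2.15, SE 0.11, adjusted p = 2.38e-22). The 6 mutants of the rule had 17.00 to 33.72. Long-day wild-type flowers had 20.73, 18.78 and 20.5, so the low level was shared by the 7 mutant groups and 1 wild-type group. In the other wild-type groups no array was under 97.98: flowers of stage 9 averaged 271 and of stage 10/11 284, stage 12 petals 234, carpels 226 and stamens 115, pedicels 201 and pollen 119. No organ stood out, and what the low groups have in common was not tested.

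To ask where in the flower the members are expressed, each organ was compared with the other 3 of its stage. Stage 12 stamens were the highest of the 4 organs for 58 members. The member mean there had a median of 1385, which is 13.1% in the whole flower, 3.93% in petals, 2.49% in sepals and 0.805% in carpels when each member's stamen level is set to 100%. Enriched in stamens, meaning called higher than in each other organ, were 57 of 59 members, against 9.58% of all 17646 probe sets tested. Enriched members in sepals, petals and carpels numbered 0, 0 and 0, against 6.79%, 1.67% and 5.07% of all probe sets, and the limma counts without adjustment were also 0. The median log2 difference of members from petals was 4.39, from sepals 4.95 and from carpels 5.93, where the medians of all tested probe sets were -0.18, -0.07 and -0.30. The 2 exceptions were AT5G26270 and 257220_at. The latter read 1203, 1379 and 1232 in stamens and 1249, 1232 and 1208 in petals, which did not differ beyond their spread (log2 difference 0.04, SE 0.11, adjusted p = 0.74).

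Among the named genes with the largest ratios over the next organ, AT4G28000, an AAA-type ATPase gene, averaged 1214 in stamens and 25 in petals (log2 difference 5.08, SE 0.19, adjusted p = 8.33e-32). AT4G18395, at 1235 against 27.96, AT3G52620, at 1095 against 24.83, and AT2G19000, at 2381 against 66.6, differed by 4.99, 4.96 and 4.94. In each of the 4 the stamen arrays stood far above those of petals. AT4G24380 kept a clear signal in all 4 organs: it read 3219, 4013 and 3265 in stamens against 703.9, 738.7 and 728.5 in sepals, 601.0, 606.1 and 643.2 in petals and 448.1, 429.4 and 452.6 in carpels.

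The stamen label was checked with a list of genes of the pollen vegetative cell and pollen tube. Of its 33 genes 10 were tested. All 10 were enriched in stage 12 stamens, against 9.58% of all probe sets. In pollen 8 were higher than in those stamens, against 14.3%, and 0 lower, against 30.0%. Of 4 tested carpel and ovule genes 0 were enriched in stamens. The lists hold 32 genes with a named probe set, and 0 of these passed the rule; the other list genes were not analysed here. In stage 12 flowers 1 of the 11 vegetative cell genes with a named probe set, PLIM2b at 158, reached 100. Of the early anther lists, 2 of 4 tapetum and pollen wall genes were lower in pollen than in stage 12 stamens and 0 higher, and 2 of 4 pollen coat genes likewise. With 30.0% of all probe sets lower there, counts this small show little. Enriched in stage 12 stamens were 2 of the 4 tapetum and pollen wall genes and 1 of the 4 pollen coat genes. The male germline gene MGH3, at 568 in stage 12 stamens, was the 1 tested member of its list and was enriched there. The stage 12 level of ATA27, a tapetum gene, was 929, and its highest level in the 6 mutants was 217% of that.

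**Figure D2:**
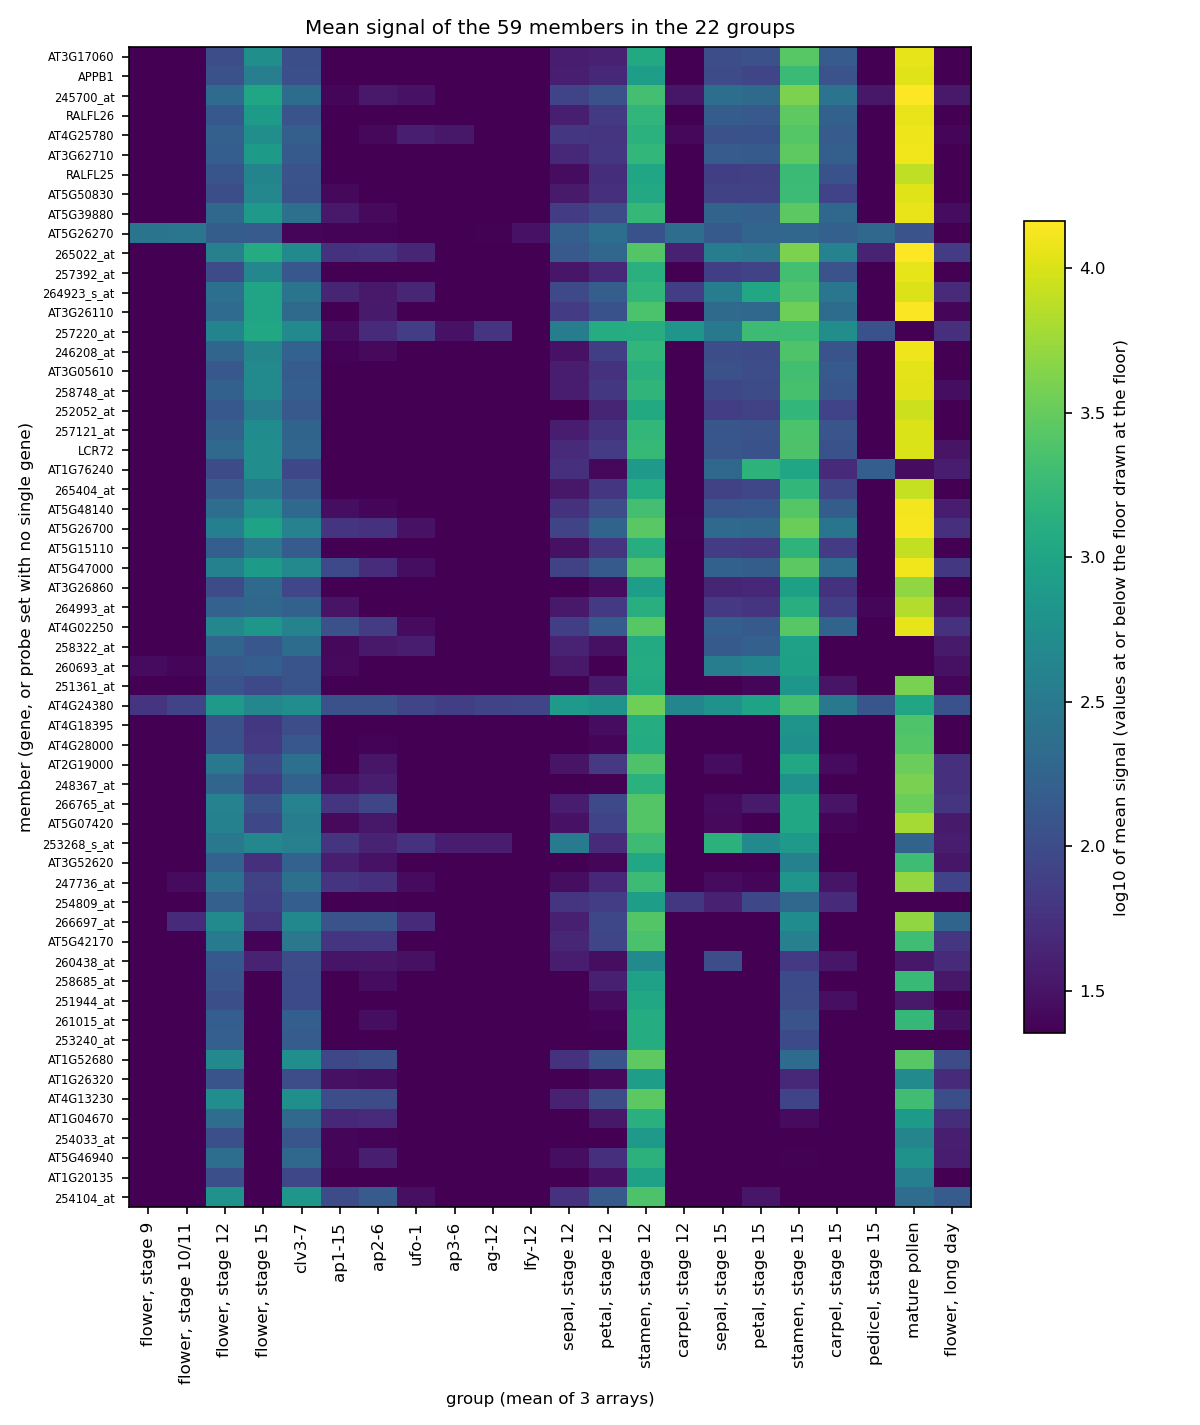
Mean signal of the 59 members (rows, ordered by their change from stage 12 to stage 15 stamens) in the 22 groups (columns), as log10 of the mean of 3 arrays, with means at or below the floor of 22.61 drawn at the floor. Stage 12 stamens are bright in nearly all rows; the lowest rows are dark in stage 15 stamens and flowers, and most of them are bright in pollen, with 253240_at and 251944_at among the exceptions.

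Most members appeared in whole flowers between stage 10/11 and stage 12. At stage 9, 55 of 59 lay at or below the floor in every array, and at stage 10/11, 51. Above the floor in every stage 10/11 array were 5 members. AT5G26270 went the other way, from a mean of 284 at stage 10/11 to 151 at stage 12. Single arrays had 13939 to 13992 of all 22810 probe sets above the floor at stage 9. At stage 10/11 they had 13995 to 14048. Between these early stages 4 members rose, against 2.01% of all probe sets, and 0 fell, against 1.14% (6 by limma without adjustment and at any size). At this low signal the count of rising members was between 1 and 15 under other settings. The 4 were 266697_at, AT1G52680, 253268_s_at and 248367_at. Only 266697_at, from 2.94 to 50.1, had a stage 10/11 mean above the floor. The other means were still below it: AT1G52680 went from 2.52 to 18.3, 253268_s_at from 1.34 to 20.4 and 248367_at from 1.045 to 17.3. The step to stage 12 is part of how the members were chosen, with a median ratio of 30.3. Arrays of stages 9 and 10/11 carry replicate labels of another series (A2, B2, C2) than the later ones, a difference that cannot be told apart from stage here.

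From stage 10/11 to stage 15, which avoids the selecting arrays, 43 members rose, against 11.0% of all probe sets, and 1 fell, against 6.42%. AT3G26110 read 1.413, 0.5736 and 1.962 at stage 10/11, then 204.5, 233.2 and 221.0 at stage 12 and 1020, 945.2 and 983.6 at stage 15. Its stage 15 level was at least 43.5-fold above stage 10/11 (log2 fold change 6.30, SE 0.10, adjusted p = 1.81e-49). The 1 that fell, 254033_at, was below the floor in both groups. Among the 15 members with no call, AT4G13230, AT1G20135, AT5G46940, AT1G04670, AT1G52680 and AT1G26320 had means below the floor at stage 15 after their stage 12 level. At stage 15, 12 members were at or below the floor in every array. Single arrays of that stage had 14186 to 14353 of all 22810 probe sets above it.

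Stamens of stages 12 and 15 were compared to follow this loss within the organ. From stage 12 to 15, 24 of 59 members fell and 2 rose, against 12.0% of all probe sets lower and 12.0% higher. Stage 15 stamens were still the highest organ of that stage for 55 members. Enriched there were 50 members, against 4.89% of all, and 0 in sepals (5.21%), petals (1.29%) or carpels (14.5%). By limma without adjustment and at any size those counts were 2, 2 and 0. Over all members the median log2 change was 0.00, because falls and small increases balanced: the 24 that fell kept a median of 0.12 of their stage 12 level.

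AT1G20135, of the GDSL lipase family, had the steepest loss among named members. It read 900.6, 777.8 and 1084 in stage 12 stamens and 6.762, 6.229 and 12.39 in stage 15 stamens, a drop of at least 40.7-fold (log2 difference -5.56, SE 0.20, adjusted p = 1.91e-32). AT5G46940, of the family of pectin methylesterase and invertase inhibitors, went from 1454, 1443 and 1404 to 18.93, 22.45 and 28.93 (log2 fold change -5.39, SE 0.22, adjusted p = 1.17e-29). The groups did not overlap for either gene. AT1G04670 fell from 1380 to 27.05, AT4G13230 from 2866 ± 261 (SD, n = 3) to 82.9 ± 13.3, and AT1G26320, a zinc-binding dehydrogenase family gene, from 838 to 46.4. The 2 late embryogenesis abundant genes and the 2 GDSL genes all fell, with AT1G52680 going from 2944 to 216 and AT5G42170 from 2299 to 375.

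The 2 members that rose were APPB1 and the pectinesterase family gene AT3G17060. APPB1, of the same inhibitor family as AT5G46940, went from 863.9, 842.2 and 864.5 to 1715, 1886 and 1930 (log2 fold change 1.09, SE 0.12, adjusted p = 7.54e-12). AT3G17060 went from 1214, 1158 and 1058 to 2606, 2766 and 2746 (log2 fold change 1.24, SE 0.13, adjusted p = 6.26e-13). The inhibitor family thus held a gene that rose, one that fell and one, AT4G02250, at 2692 and 2678. Of the 5 pectin-modifying enzymes AT5G07420 fell, from 2602 to 1059, and AT5G48140, AT5G15110 and AT3G05610 had no call. These role groups were formed from the members' known families after the members were seen.

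**Figure D3:**
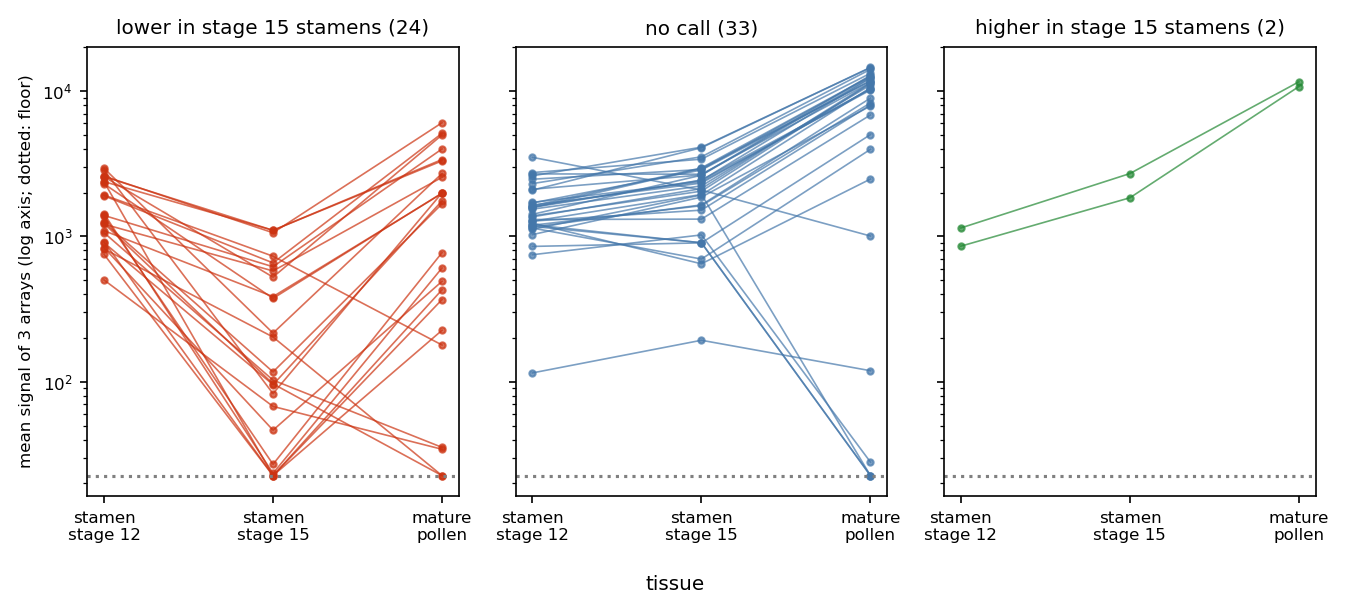
Mean signal (3 arrays, log axis) of each member in stage 12 stamens, stage 15 stamens and mature pollen, split by the call between the stamen stages, with the floor of 22.61 dotted and values below it drawn there. Of the 24 members lower in stage 15 stamens 19 are called higher in pollen than in stage 15 stamens, and of the 33 with no call 27; 4 of the latter have a pollen mean under 50.

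Mature pollen held most of the members. In pollen 53 of 59 were above the floor in every array, 4 were at or below it in every array, and pollen was the highest of the 22 groups for 39 members. Single pollen arrays had 11798 to 12162 of all 22810 probe sets above the floor. The share of all probe sets highest in pollen was not computed. Against stage 12 stamens 32 were higher in pollen (14.3% of all probe sets) and 13 lower (30.0%), and against stage 15 stamens 48 were higher (18.8%) and 9 lower (30.5%). The median member was 2.69 times its stage 12 stamen level and 4.69 times its stage 15 level. These counts depend on how the pollen arrays, with 11798 to 12162 probe sets above the floor against 12458 or more on every other array, are scaled. With quantile normalization 9 members were higher and 17 lower than in stage 12 stamens and 17 higher and 8 lower than in stage 15 stamens, and with division by the 75th percentile 39 and 10, and 48 and 7. These scalings moved the median of all probe sets against stage 12 stamens from -0.31 to 0.01 and 0.37. Under quantile normalization the median log2 difference of the members was 0.02 instead of 1.43.

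Several members called higher in pollen than in stage 12 stamens had no call between the stamen stages. The calls in this and the next paragraph hold for the deposited scaling. With quantile normalization 9 members in place of 32 were called higher than in stage 12 stamens. Which of the genes named below kept the call is not given here. AT5G26700, of the cupin family, read 2704, 2869 and 2674 in stage 12 stamens, 3365, 3415 and 3416 in stage 15 stamens and 12103, 13809 and 13842 in pollen (pollen against stage 12, log2 fold change 2.26, SE 0.10, adjusted p = 6.48e-28). AT3G26110 averaged 2308 ± 187, 3529 ± 122 and 14107 ± 896 in the same samples. The 3 groups of arrays did not overlap for either gene. All 5 pectin-modifying enzymes were called higher in pollen than in stage 12 stamens, AT5G48140 from 2111 to 12835 and AT3G05610 from 1385 to 11276; AT5G07420 among them, from 2602 to 6055, turned to a lower value with quantile normalization. APPB1 had the largest increase among the members, from 857 to 10739 (log2 fold change 3.63, SE 0.12, adjusted p = 1.90e-34), followed by AT3G17060 at 3.33 and AT5G50830 at 3.22.

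The 3 small secreted peptides had the same calls. RALFL25 and RALFL26 encode peptides of the rapid alkalinization factor family, whose members signal through receptor kinases at the cell surface, and LCR72 encodes a cysteine-rich, defensin-like peptide. RALFL26 read 1595, 1706 and 1426 in stage 12 stamens, 2957, 3023 and 2818 in stage 15 stamens and 11089, 11441 and 12700 in pollen. RALFL25 averaged 1029, 1864 and 7895 and LCR72 1713, 2377 and 10165 in these samples. Each was called higher in pollen than in stage 12 stamens and had no call between the stamen stages. In the gene order of the RefSeq table (TAIR10.1) RALFL25 and RALFL26 have 1 gene between them, the 1 pair of members among the 32 single genes with at most 5 genes between.

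Of the 24 members that fell in stage 15 stamens, 19 were higher in pollen than in those stamens and 4 lower. The stage 15 stamen arrays served both calls, which favours a call of higher in pollen. Of the 33 with no call between the stamen stages 27 were higher, and of all 59 members 48, so the count is not particular to the members that fell. AT1G20135 read 605.7, 247.1 and 250.3 in pollen and AT5G46940 1055, 357.7 and 406.7, which were lower than in stage 12 stamens (log2 fold changes -1.41 and -1.40) but at least 16.3-fold above stage 15 stamens for AT1G20135 and 3.99 higher on the log2 scale for AT5G46940. AT4G13230 read 3303, 1249 and 1428 against 83.12, 69.46 and 96.0 in stage 15 stamens (log2 fold change 4.28, SE 0.22, adjusted p = 1.46e-25). The 3 pollen arrays were not alike for these genes. Of the 22 members lower in stage 15 stamens and above the floor in pollen, the array of replicate A was the highest for 20, at a median of 1.60 times the mean of replicates B and C. Of the other 31 members above the floor it was the highest for 4 and the lowest for 20, with a median ratio of 0.934. The same counts over all probe sets were not computed, so these are description only. Replicate A also had the fewest probe sets above the floor, 11798, against 12025 in B and 12162 in C. Pollen replicates correlated across probe sets at 0.959 at the lowest and those of other groups at 0.986 or more. Without replicate A 31 members were higher and 16 lower than in stage 12 stamens, and 48 were higher than in stage 15 stamens, as with all arrays.

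**Figure D4:**
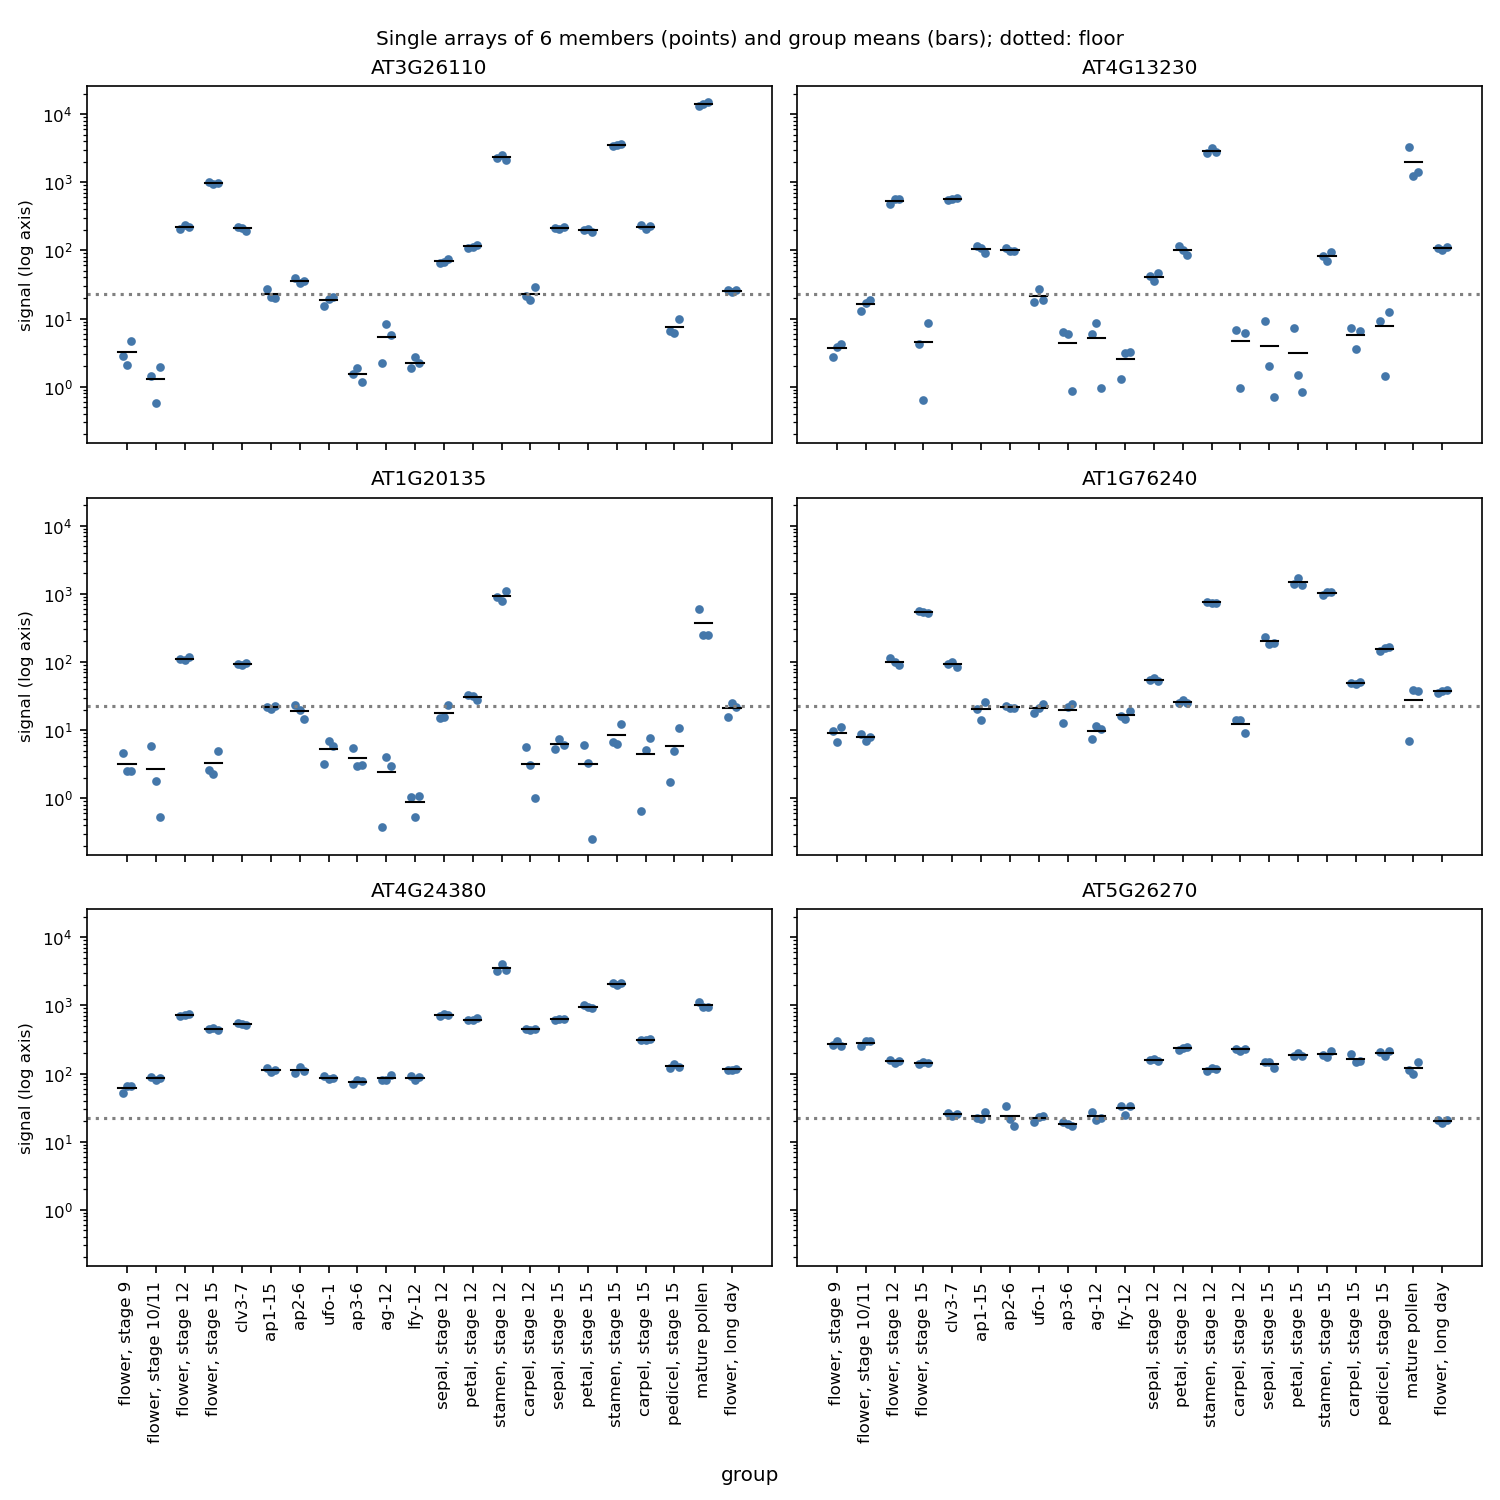
Signal on each array (points, log axis) and group mean (bars) for 6 members in all 22 groups, with the floor of 22.61 dotted. AT3G26110 is highest in pollen, AT4G13230 and AT1G20135 are high in stage 12 stamens and in pollen but not in stage 15 stamens, AT1G76240 is high in stage 15 petals, AT4G24380 is above the floor in every group, and AT5G26270 is low in the 7 mutants and long-day flowers.

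A smaller group of members was low in pollen. Those at or below the floor in every pollen array were 257220_at, 260693_at, 254809_at and 253240_at, which were at least 56.2, 53.2, 36.3 and 54.3-fold lower than in stage 12 stamens. For 257220_at the pollen arrays read 5.672, 17.31 and 3.311. AT1G76240, the named gene with the largest decrease, read 762.1, 737.5 and 744.5 in stage 12 stamens and 6.801, 39.13 and 38.07 in pollen (log2 fold change -4.42, SE 0.17, adjusted p = 5.99e-31). AT4G24380 was lower in pollen too, at 1130, 943.4 and 945.3 (log2 fold change -1.78, SE 0.07, adjusted p = 1.60e-29), but far above the floor.

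Petals were also compared between the 2 stages. From stage 12 to 15 in petals 7 members (11.9%) rose, near the 11.6% of all probe sets, and 15 (25.4%) fell, against 13.7%. AT1G76240 went from 25.15, 27.56 and 24.99 to 1387, 1692 and 1355 (log2 fold change 5.32, SE 0.17, adjusted p = 2.50e-34) while stage 15 stamens read 963.1, 1057 and 1052, less than 2-fold below. The probe set 260693_at went from below the floor to 416, 264923_s_at from 159 to 1089, 253268_s_at from 49.2 to 487 and 258322_at from 30.1 to 166. Of these 5, all but 264923_s_at were lower in pollen than in stage 12 stamens. The other 2 that rose were AT3G62710, a glycosyl hydrolase family gene, from 63.7 to 141.5, and AT3G17060, from 40.6 to 113. For AT3G62710 the petal level was 3.93% of the stamen level at stage 12 and 4.78% at stage 15. For AT3G17060 it was 3.55% and 4.16%. Over the members highest in pollen the median petal level was 4.23% and 4.49% of that in stamens. AT3G62710, AT3G17060 and 264923_s_at were called higher in pollen than in stage 12 stamens.

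The difference between the change in stamens and the change in petals was tested directly. The stamen change was below the petal change for 19 members, against 10.7% of all probe sets. It was above the petal change for 0, against 12.8% (3 by limma without adjustment and at any size). AT1G76240 differed most, by -4.87 on the log2 scale (SE 0.24, adjusted p = 9.74e-25), with stamen means of 748 and 1024. In the case of AT1G04670 (-3.59) and AT1G20135 (-4.01) petals were already near the floor at stage 12, at 34.2 and 30.8, which limits how far they could fall. Of the 19, 7 were above the floor in all petal arrays of both stages.

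Sepals of stage 15 were the highest organ of that stage for 2 probe sets. One, 253268_s_at, read 1296, 1471 and 1596 there and 734.1, 751.7 and 705.9 in stamens, and the other, 260438_at, averaged 104.6 and 67.7, and for both the difference from stamens had no call. The first pairs with several genes and is not named. Among the other stage 15 organs the median member stood at 5.67% of its stamen level in carpels, 5.32% in sepals and 4.82% in petals. At stage 12 the carpel median had been 0.805%.

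In long-day flowers the members stood at 0.0335 to 0.401 of the stage 12 level, with a median of 0.162. AT3G26110 read 25.79, 24.66 and 25.83 there and AT4G13230 108.6, 101.0 and 112.3. This group differs from the others in day length and temperature at once and its stage is not given, so no test was made.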

How the data were processed

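The deposited values are linear signal intensities that the authors obtained with MAS5, per the submitters' processing notes (version not given in the sources used here), and they were used as scaled in the deposited table. From the group means the members were selected by the rule stated above. The members, gene lists and role groups were chosen with earlier results of these data known. Log2(signal + 11.31) was fitted in limma 3.58.1 (R 4.3.3), 1 mean for each group, all 66 arrays together, and eBayes with a trend. The pseudocount is 0.5 of the floor, and fold changes on this scale understate the change of dim genes. Probe sets with at least 1 group wholly above the floor were tested (17646), and the other 5100 were left out. All 59 members passed, which the selection favours. Calls need a Benjamini-Hochberg adjusted p below 0.05, over all probe sets tested, and a 2-fold change. Where all arrays of a group lie at or below the floor, the fold is the other mean over the floor, written "at least". Each group has 3 arrays, which limits the precision. Genes named are those highest in stage 12 flowers, with the largest ratio over the next organ, with the largest calls of a comparison, at the edge of the rule, or sharing a family. Probe sets with no single gene, AT5G15110, the pollen array of replicate A and the pattern of AT5G26270 in long-day flowers were added after their values were seen. Settings varied were the limits of the rule, the pseudocount, the filter, the scaling, robust eBayes, the replicate letter as a block, the arrays fitted and each array left out. The fit was tested on simulated data.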

Additional observations from a re-analysis of the deposited data

Results flagged for a closer look

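The change from stage 12 to stage 15 differed between stamens and petals for 19 members, by a contrast of the 2 changes in the same fit. For each the stamen change was below the petal change. Of the 19, 7 were above the floor in all petal arrays of both stages, and for the others the floor limits the petal change. For AT1G76240 the difference was -4.87 on the log2 scale: its petal mean went from 25.9 to 1478 and its stamen mean from 748 to 1024.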

How the results depend on the processing

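Of 353 alternative values of the 25 counts, 330 were within 1.5 times the main count and 23 were not. The number of members was 100 with a limit of 50 in stage 12 flowers, 24 with 200, 94 with a limit of 1/3 of wild type and 12 with 1/8; leaving out single arrays gave 56 to 60. With quantile normalization 9 members were higher in pollen than in stage 12 stamens and 17 higher than in stage 15 stamens, and 1 was enriched in stage 15 sepals (0 to 1 when single arrays were left out). Between stage 9 and 10/11, 15 members rose without a pseudocount, 1 with a pseudocount equal to the floor and 1 with only the groups compared, and 8 fell without a pseudocount. From stage 10/11 to 15, 3 fell without a pseudocount, 0 with the pseudocount equal to the floor, 0 with only the groups compared, and 1 to 2 with single arrays left out. The stamen change was above the petal change for 1 member without a pseudocount and for 0 to 1 with single arrays left out. Of 5177 alternative values of single members 119 lost their call and 5 turned: without a pseudocount AT4G13230 (0.393) and 261015_at (0.959) in the stamen minus petal change, and with quantile normalization AT5G07420 (-0.457), 247736_at (-0.261) and AT4G28000 (-0.161) in pollen against stage 12 stamens. The cause was not tested. The replicate letters do not pair the samples: over 672 pairs of arrays of 2 groups with the same letter the median correlation of deviations was 0.0011, and over 1407 pairs with other letters 0.00037. With the letter as a block 57 members were enriched in stage 12 stamens and 49 in stage 15 stamens, and no count moved by over 1.5 times. Signals near the floor limit the petal, carpel and early flower values.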
